A study of Mus musculus with 4 samples.

Results

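The Cyp4 genes described here are 8 members of the cytochrome P450 family 4, the omega-hydroxylases, measured in mouse liver with lipin 1beta overexpression. Members were taken by gene symbol, and every probe set annotated with one of these symbols was kept, which gave 8 of 13319 annotated genes and 9 of the 22626 probe sets that are not controls. Cyp4a10, Cyp4a12a, Cyp4a14, Cyp4b1, Cyp4f13, Cyp4f14 and Cyp4f15 had 1 probe set each, and Cyp4v3 had 2. The Cyp4a10 probe set is shared with Cyp4a31, a neighbouring gene of near-identical sequence, so its signal cannot be assigned to Cyp4a10 alone.

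Liver RNA came from adult male C57BL6 mice given an adenovirus that carried mouse lipin 1beta (Ad-lipin, 2 arrays) or one that carried green fluorescent protein (GFP control, 2 arrays). All 4 samples thus received a virus, and all were taken 6 days after injection. Lipin replicate 2 is labelled as polyA RNA and the other 3 as total RNA, and no label says whether each array is a separate mouse. The p-values therefore reflect only how far these samples differ, and that difference can be technical.

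Omega-hydroxylases are membrane enzymes of the endoplasmic reticulum that add a hydroxyl group at the far end of a fatty acid or eicosanoid. The product is oxidised by alcohol and aldehyde dehydrogenases to a dicarboxylic acid, which peroxisomes shorten. In mouse liver Cyp4a10 and Cyp4a14 are textbook targets of PPAR alpha, the nuclear receptor of fatty acid oxidation. Lipin 1 is a phosphatidate phosphatase that also acts as a coactivator with PPAR alpha, which is why this family bears on the comparison.

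GFP replicate 2 correlated least with the other arrays (mean r over probe sets 0.731, against 0.781 to 0.793). Its actin signal was also the most skewed to the 3' end, with a 3'/5' ratio of 4.22, against 1.77 to 2.86. Lpin1, the gene carried by the vector, read 3853.7 and 11087.0 in lipin replicates 1 and 2 on its brighter probe set, against 7082.1 and 4631.6 in GFP replicates 1 and 2. On its dimmer probe set it read 2260.5 and 6718.6 in the lipin replicates, against 2730.1 and 1430.2 in the GFP replicates. Lipin replicate 1 thus did not exceed the GFP range, and every direction given here rests on the labels, so the arrays are called labelled lipin. Hepatocyte markers such as Alb, Ttr and Apoa1 were far above the floor on all 4 arrays. Signals are MAS5 values in arbitrary units, a floor of 119.5 was set under dim signals before log2 was taken, and precision is limited by having 2 arrays a group.

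Among the 13576 probe sets bright enough to test, all 9 of the Cyp4 members were included, and none passed limma's test at an adjusted p under 0.05. The same test called 0 of all probe sets (0.00%), while 596 (4.39%) had an unadjusted p under 0.05. Among the 335 of these that were higher in the arrays labelled lipin (2.47% of all), 1 was a Cyp4 probe set. The adjusted p of the Cyp4 probe sets lay between 0.962 and 0.993. In 1 of the 9, that of Cyp4a10, both arrays labelled lipin lay above both GFP arrays (17.1% of all probe sets did so). In 1 other, a probe set of Cyp4v3, both lay below (15.9% of all). The groups did not overlap in 2 of 9, against 33.0% of all probe sets, so the Cyp4 share is not above the background. The other 7 overlapped. The median log2 difference over the 9 was 0.16, beside 0.004 over all probe sets tested. With 2 arrays against 2, an exact permutation test of a single gene cannot go below p = 0.333, two-sided.

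**Figure D1:**
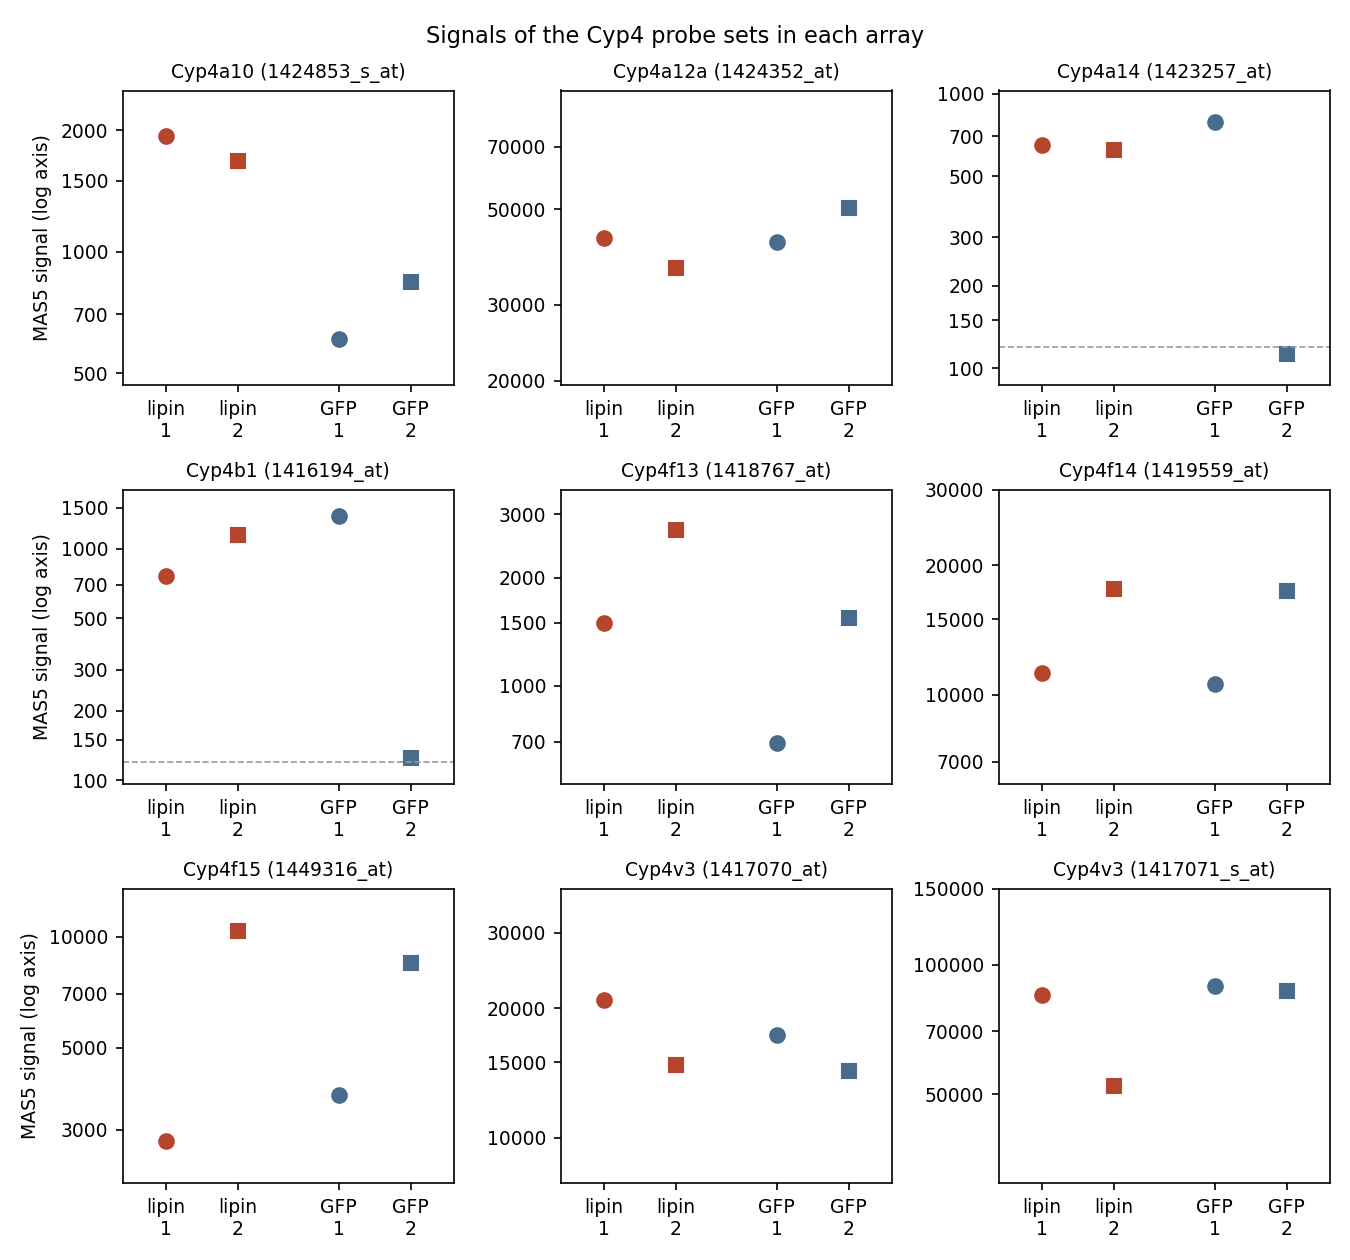
MAS5 signal (arbitrary units, log axis with its own range in each panel) of the 9 Cyp4 probe sets in the 2 arrays labelled lipin (red, left) and the 2 GFP arrays (blue, right); circles are replicate 1 and squares replicate 2, and the dashed line is the floor of 119.5. The groups separate for Cyp4a10, from 1680.5 to 1932.6 in the arrays labelled lipin against 607.5 to 841.6 in the GFP arrays. They also separate, in the other direction, for the brighter Cyp4v3 probe set, from 52250.6 to 84847.7 against 86573.1 to 89220.7. Cyp4a14 and Cyp4b1 are low in GFP replicate 2 alone.

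Cyp4a10, a fatty acid omega-hydroxylase, gave the Cyp4 difference with the smallest p. Its shared probe set read 1932.6 and 1680.5 in lipin replicates 1 and 2, against 607.5 and 841.6 in GFP replicates 1 and 2. Both arrays labelled lipin were high and the groups did not overlap. The means were 1807 ± 178 in the arrays labelled lipin and 724.5 ± 165.5 in the GFP arrays (SD, n = 2 each), a log2 difference of 1.33 ± 0.62 (SE), or 2.52-fold. The limma p was 0.0490 before adjustment, rank 579 of 13576, and 0.962 after it, so the difference did not pass. Leaving out any 1 array kept it between 1.10 and 1.57.

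Cyp4a31, the gene that shares this probe set, also has a probe set of its own. It read 140.7 and 337.9 in lipin replicates 1 and 2, against 40.7 and 91.0 in GFP replicates 1 and 2. The GFP signals lay under the floor, and the probe set was too dim on average to be tested. Both arrays labelled lipin read above both GFP arrays, but with the GFP signals under the floor no log2 difference is given. Probes for near-identical transcripts do not give independent measurements.

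Cyp4a14, another PPAR alpha target with fatty acid hydroxylase activity and the coding gene next to Cyp4a10 on chromosome 4, did not follow it. It read 648.0 and 625.1 in lipin replicates 1 and 2, against 789.7 and 113.0 in GFP replicates 1 and 2. The arrays labelled lipin were nearly equal, and GFP replicate 2 alone was low, under the floor. The log2 difference of 1.05 ± 1.34 (SE) turned to -0.31 when GFP replicate 2 was left out and to 2.41 when GFP replicate 1 was, and the limma adjusted p was 0.962. GFP replicate 2 is the array with the highest actin ratio, and the part of RNA quality in this low value was not tested.

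Cyp4a12a is the male-predominant Cyp4a enzyme, which hydroxylates arachidonic acid. It read 42942.5 and 36605.0 in lipin replicates 1 and 2, against 42023.7 and 50418.5 in GFP replicates 1 and 2. The groups overlapped, and the log2 difference was -0.22 ± 0.34 (SE, limma adjusted p = 0.962). It had the smallest SE of the 3 Cyp4a members, and its difference ran from -0.35 to -0.08 with 1 array left out. Of 10 tested genes with male-biased expression in mouse liver, 0 passed in either direction, and their median log2 difference was 0.10.

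Among these, Cyp2d9, a male-specific P450, read 74665.9 and 102355.7 in the lipin replicates, against 60150.3 and 86800.1 in the GFP replicates, and the groups overlapped. Elovl3, a fatty acid elongase, read 2017.6 and 2168.7 in the lipin replicates, against 3960.7 and 2347.3 in the GFP replicates. Its groups did not overlap, with a log2 difference of -0.54 ± 0.45 (SE, limma adjusted p = 0.962). The transporter Slco1a1 read 21171.9 and 25780.5 in the lipin replicates on its brighter probe set, against 16490.7 and 33130.7 in the GFP replicates, with full overlap.

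Cyp4b1, known mainly as a lung enzyme that also acts on medium-chain fatty acids, had the pattern of Cyp4a14. It read 765.6 and 1149.6 in lipin replicates 1 and 2, against 1384.7 and 125.1 in GFP replicates 1 and 2. GFP replicate 2 was near the floor and GFP replicate 1 was the highest of the 4, so the groups overlapped. The log2 difference of 1.17 ± 1.13 (SE, limma adjusted p = 0.962) turned to -0.56 when GFP replicate 2 was left out and to 2.91 when GFP replicate 1 was.

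**Figure D2:**
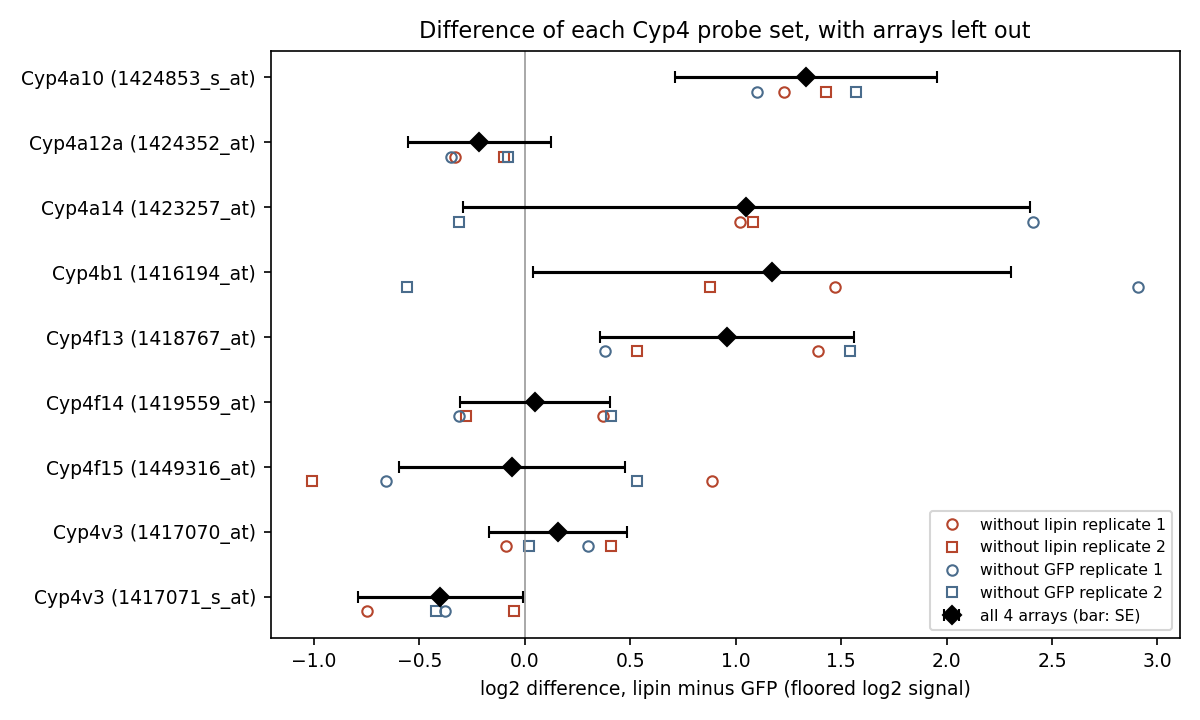
Log2 difference, arrays labelled lipin minus GFP arrays, of each Cyp4 probe set with all 4 arrays (black diamonds, bars are limma's SE) and with 1 array left out (open symbols). Cyp4a10 stays between 1.10 and 1.57, whereas Cyp4a14 and Cyp4b1 fall below 0 without GFP replicate 2, and Cyp4f15 ranges from -1.01 to 0.89.

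The 3 Cyp4f members lie close together on chromosome 17, with 0 coding genes between Cyp4f14 and Cyp4f13 and 4 between Cyp4f15 and Cyp4f14. They shared a pattern by replicate number: the replicate 2 array was the higher one in both groups. Cyp4f13 also read higher in the arrays labelled lipin, with overlap (log2 difference 0.96 ± 0.60, SE). The stretch from -150 to -31, counted from the transcript start, is shown for each of the 3 Cyp4f members. Any part of these sequences in the pattern was not tested. They come from RefSeq promoter windows on GRCm38.p6 (chr17:32947392-32947511, minus strand, for Cyp4f13, chr17:32917387-32917506, minus strand, for Cyp4f14, and chr17:32685509-32685628, plus strand, for Cyp4f15). For Cyp4f14 the first of its 4 listed windows was taken. Capitals mark the reverse complement of the CCAAT box.
Cyp4f13: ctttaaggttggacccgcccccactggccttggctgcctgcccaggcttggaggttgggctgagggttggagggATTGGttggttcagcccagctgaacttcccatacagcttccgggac
Cyp4f14: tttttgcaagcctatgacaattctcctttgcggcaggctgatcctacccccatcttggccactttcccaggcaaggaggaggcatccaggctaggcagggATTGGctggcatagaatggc
Cyp4f15: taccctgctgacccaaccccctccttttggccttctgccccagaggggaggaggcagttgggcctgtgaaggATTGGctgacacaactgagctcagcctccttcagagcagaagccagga

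Each of the 3 stretches held ATTGG once, with its first base at -76 in Cyp4f13, -50 in Cyp4f14 and -78 in Cyp4f15. Over the same 120 bases, 11.9% of 27025 mouse promoters held ATTGG and 21.8% held CCAAT on either strand. The 11.9% counts only the strand on which all 3 matches lay. No plan fixed the stretch or the strand beforehand, so these shares are no test of the matches. The longest run shared by the Cyp4f13 and Cyp4f14 stretches, 9 bases, includes ATTGG, so the matches need not be independent. Promoter windows of 300 bases were matched for 5 of the 8 members, the 3 Cyp4f genes, Cyp4b1 and Cyp4v3. None of the 5 held AGGTCA, the half-site of PPAR alpha and other nuclear receptors, on either strand, against 16.04% of all promoters. None held TATAAA, against 14.16%, and CCAAT was found on either strand in the 3 Cyp4f windows, against 37.9% of all. These matches were looked for after the signals were seen, and they describe letters in these windows only.

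Cyp4f14 is known in mouse for the omega-hydroxylation of leukotrienes and vitamin E. It read 11230.1 and 17579.1 in lipin replicates 1 and 2, against 10591.9 and 17455.3 in GFP replicates 1 and 2. The groups covered the same range, and the log2 difference was 0.05 ± 0.36 (SE, limma adjusted p = 0.990). Replicate 2 was 1.57-fold of replicate 1 among the arrays labelled lipin and 1.65-fold among the GFP arrays.

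Cyp4f15, which also hydroxylates leukotrienes, read 2794.8 and 10395.6 in lipin replicates 1 and 2, against 3720.4 and 8494.2 in GFP replicates 1 and 2. The 2 replicates differed by 3.72-fold in the arrays labelled lipin and by 2.28-fold in the GFP arrays, far more than the groups did. The log2 difference between the groups was -0.06 ± 0.54 (SE, limma adjusted p = 0.993). Leaving out lipin replicate 1 gave 0.89 and leaving out lipin replicate 2 gave -1.01. Leaving out GFP replicate 2 gave 0.53, and GFP replicate 1, -0.66.

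Cyp4f13, the third enzyme of this cluster on the array, read 1496.7 and 2704.3 in lipin replicates 1 and 2, against 693.1 and 1545.0 in GFP replicates 1 and 2. Each array labelled lipin exceeded the GFP array with the same number, but lipin replicate 1 lay just under GFP replicate 2, so the groups overlapped. The log2 difference was 0.96 ± 0.60 (SE, limma adjusted p = 0.962), or 1.94-fold. Leaving out GFP replicate 1 gave 0.38, and leaving out GFP replicate 2 gave 1.54.

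In all 3 Cyp4f genes both arrays numbered 2 lay above both arrays numbered 1, as in 18.2% of all probe sets tested. In Cyp4a14 and the dimmer Cyp4v3 probe set both arrays numbered 2 lay below both numbered 1, as in 17.1% of all, so the 9 Cyp4 probe sets held 3 of the first kind and 2 of the second. Hepatocyte markers had both arrays numbered 2 above in 7 of 8 tested genes. Their summed signal was 2235562 and 2744304 in lipin replicates 1 and 2, against 1596354 and 3416181 in GFP replicates 1 and 2. Kupffer cell and macrophage markers had both below in 7 of 9, beside the same 17.1% of all probe sets, with Clec4f and Vsig4 as exceptions. Their summed signal over 10 markers was 52228 and 34445 in the lipin replicates, against 54449 and 30150 in the GFP replicates. No marker of either list was at 0; C1qa and Marco were under the floor in GFP replicate 2 and Marco also in lipin replicate 1. In bulk liver a change in the share of a cell type and a change in RNA per cell cannot be told apart, and the part of these markers in the Cyp4f pattern was not tested. A replicate number may stand for nothing shared between the groups, since the labels do not say that it marks a batch or a day.

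**Figure D3:**
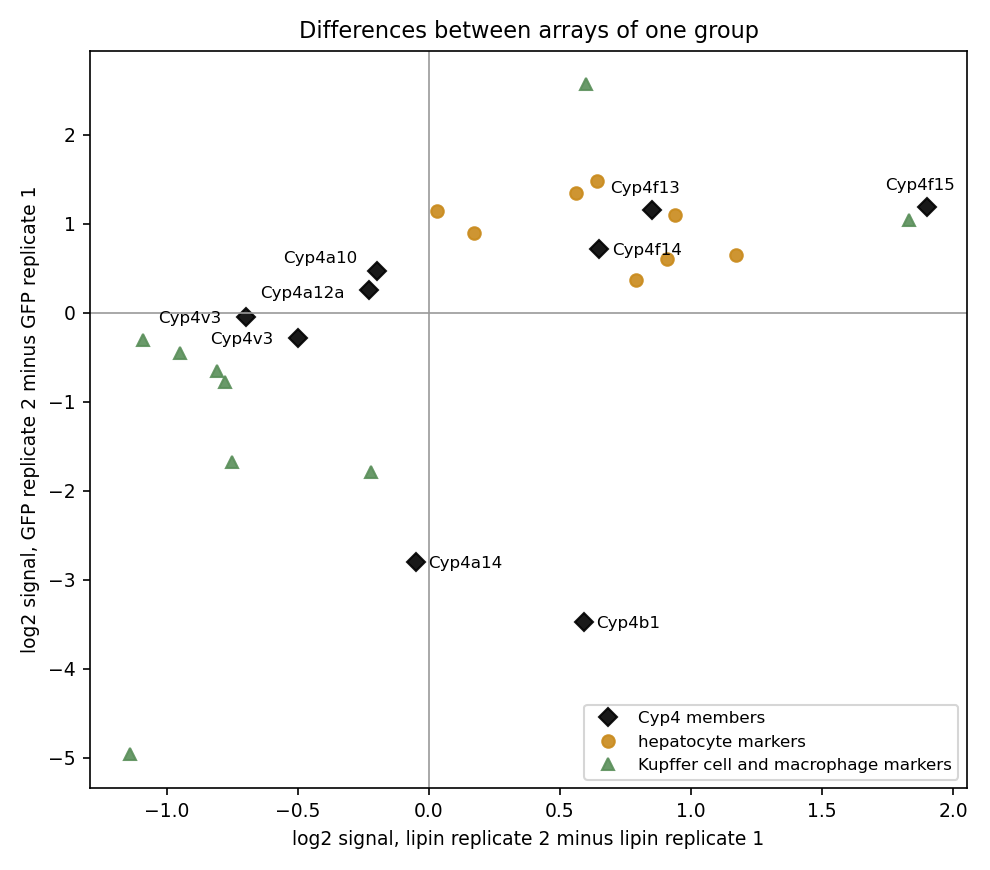
Log2 signal of replicate 2 minus replicate 1 in the arrays labelled lipin (horizontal) and in the GFP arrays (vertical) for the 9 Cyp4 probe sets (diamonds), tested hepatocyte markers (circles) and tested Kupffer cell and macrophage markers (triangles). Cyp4f13, Cyp4f14 and Cyp4f15 lie in the upper right with the hepatocyte markers, and Cyp4a14 and Cyp4b1 lie far down because GFP replicate 2 is low.

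Cyp4v3 is the mouse counterpart of the human fatty acid hydroxylase gene mutated in Bietti crystalline dystrophy, and its 2 probe sets disagreed in sign. The dimmer one read 20873.7 and 14735.1 in lipin replicates 1 and 2, against 17317.0 and 14272.8 in GFP replicates 1 and 2, a log2 difference of 0.16 ± 0.33 (SE, limma adjusted p = 0.975). It was -0.09 without lipin replicate 1. The brighter one read 84847.7 and 52250.6 in the lipin replicates, against 89220.7 and 86573.1 in the GFP replicates, a log2 difference of -0.40 ± 0.39 (SE, limma adjusted p = 0.962). Lipin replicate 2 alone was low there, and without it the difference was -0.05. Replicate 2 read below replicate 1 on both probe sets in both groups, by -0.50 and -0.70 (log2, dimmer and brighter probe set) in the arrays labelled lipin and by -0.28 and -0.04 in the GFP arrays.

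Of the other Cyp4 genes, Cyp4f16, Cyp4f18 and Cyp4a31 had a probe set of their own. Cyp4f16, a neighbour of the cluster on chromosome 17, read 121.1 and 825.1 in the lipin replicates, against 680.7 and 648.9 in the GFP replicates. Lipin replicate 1 alone was low. Its dimmer probe set read 236.5 and 655.0 in the lipin replicates, against 314.8 and 452.1 in the GFP replicates, and the log2 differences of the 2 probe sets were -1.07 ± 1.31 and 0.06 ± 1.44 (SE). Cyp4f18, the leukotriene hydroxylase of mouse neutrophils, was under the floor on every array, and its highest value was 44.5, in lipin replicate 1.

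Downstream of omega-hydroxylation, the alcohol and aldehyde dehydrogenases had 9 tested genes, of which 0 passed. In 4 of them, Adh1, Aldh1a1, Aldh2 and Aldh9a1, both arrays labelled lipin lay above both GFP arrays, and in 0 below, beside 1469 above and 1362 below over all 8493 genes tested. The median log2 difference of the list was 0.35, beside 0.00 over all genes. Adh1, the class I alcohol dehydrogenase of liver, read 95392.1 and 140805.8 in the lipin replicates, against 63145.9 and 84852.8 in the GFP replicates, with a log2 difference of 0.66 ± 0.41 (SE). Aldh3a2, the fatty aldehyde dehydrogenase that completes the omega-oxidation of long-chain substrates, read 3578.4 and 3973.9 in the lipin replicates, against 5293.8 and 2794.7 in the GFP replicates, with the lipin values inside the GFP range.

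Peroxisomal oxidation of dicarboxylic acids had 11 tested genes, of which 0 passed, and the median log2 difference was 0.27. In 5 both arrays labelled lipin lay above both GFP arrays and in 1 below, beside 1469 above and 1362 below of all 8493 genes tested. Ehhadh, the bifunctional enzyme that acts on dicarboxylic acids, read 6528.0 and 4117.5 in the lipin replicates, against 1771.4 and 2935.0 in the GFP replicates. Both arrays labelled lipin were high, and the log2 difference was 1.19 ± 0.42 (SE, limma adjusted p = 0.962). Acaa1b, a peroxisomal thiolase, read 33152.4 and 39552.7 in the lipin replicates, against 38754.9 and 23312.0 in the GFP replicates. Abcd3, which carries acyl-CoA into peroxisomes, read 21644.2 and 31237.8 in the lipin replicates, against 23460.7 and 22124.8 in the GFP replicates. Both of these overlapped between the groups. The list of electron donors of microsomal P450 had 5 tested genes: Cyb5a, Cyb5b, Cyb5r1, Cyb5r3 and the P450 partner Pgrmc1. Of these 0 passed and all 5 overlapped, with a median of -0.01. Por, the P450 reductase of this list, had no probe set of its own in the annotation. These values therefore leave its level unknown.

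Ppara itself read 5452.3 and 13121.3 in lipin replicates 1 and 2, against 1687.7 and 1695.4 in GFP replicates 1 and 2. The log2 difference was 2.32 ± 0.44 (SE), with the smallest p of its list. Its limma adjusted p of 0.660 equalled the lowest of all 13576 probe sets tested, but it did not pass. Both arrays labelled lipin were high. Its partner Rxra read 4238.0 and 3199.6 in the lipin replicates on the brighter probe set, against 4732.5 and 3321.1 in the GFP replicates, with overlap. Of 6 tested genes around PPAR alpha, 0 passed, and the median log2 difference was 0.03.

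Of 11 other PPAR alpha targets tested, 0 passed. In 3 both arrays labelled lipin lay above both GFP arrays and in 3 below, beside 1469 above and 1362 below of all 8493 genes tested, and the median was 0.30. Fabp1, the liver fatty acid binding protein, read 212798.1 and 317136.0 in the lipin replicates, against 149068.3 and 112172.1 in the GFP replicates, and was one of those above. The 3 below were Acadm, Acot1 and Cd36, with log2 differences of -0.45, -0.79 and -1.72. Cd36 was under the floor in lipin replicate 1, at 74.5. Vnn1, a pantetheinase, read 1435.4 and 926.0 in the lipin replicates, against 15.0 and 1057.8 in the GFP replicates, where GFP replicate 1 alone was low. Of the Cyp4a targets, the probe set that Cyp4a10 shares with Cyp4a31 lay above the GFP arrays, and Cyp4a14 overlapped them.

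**Figure D4:**
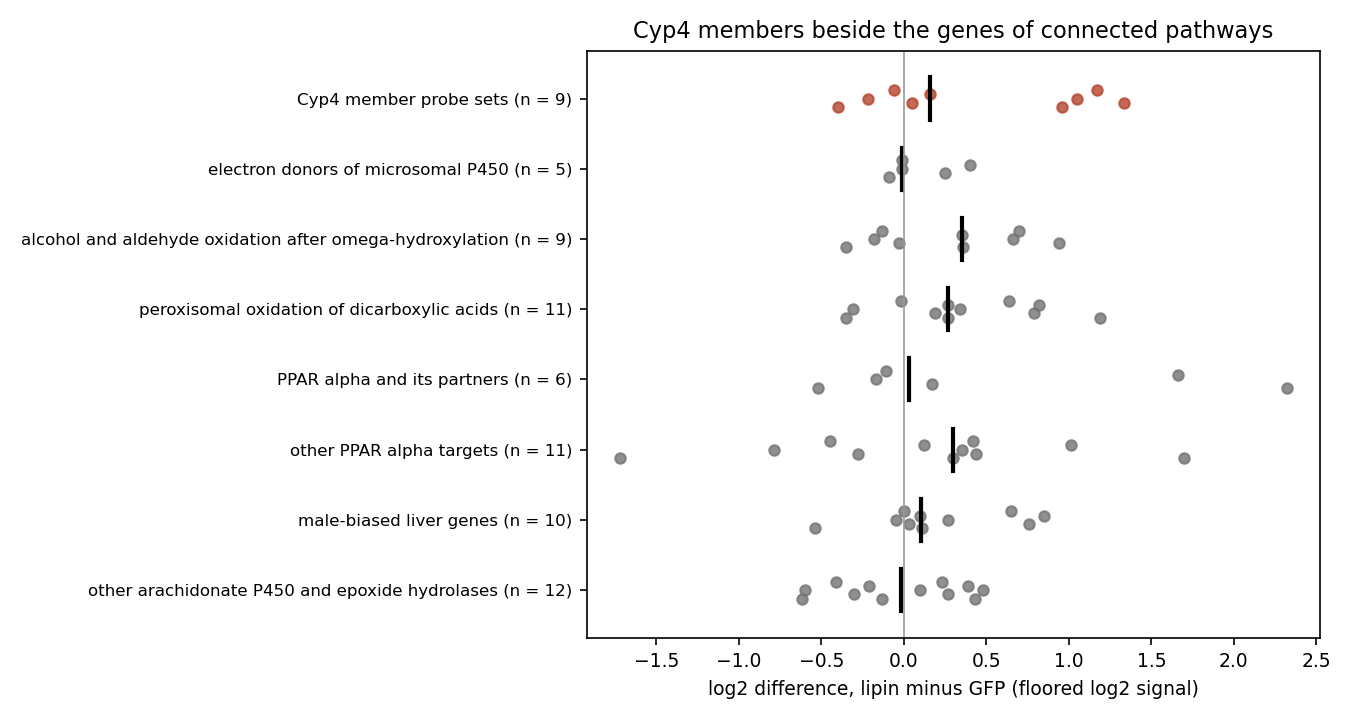
Log2 difference, arrays labelled lipin minus GFP arrays, of the 9 Cyp4 probe sets (red) and of the tested genes of connected lists (grey, 1 probe set a gene); black bars are medians. The Cyp4 probe sets have a median of 0.16 and the lists medians from -0.02 to 0.35, and 0 genes shown passed the test.

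The tested genes whose signals over the 4 arrays were most like those of 2 Cyp4a genes were named, by the Euclidean distance between mean-centred log2 values. For Cyp4a10 these were Pth2, Stk17b and Rell2, at distances of 0.068, 0.095 and 0.098, where the median over 8493 genes was 1.71. Being the smallest of many distances over only 4 arrays, such values are low by selection. Nearest distances of other genes were not computed. Pth2, for example, read 1185.5 and 1073.6 in the lipin replicates, against 366.8 and 506.6 in the GFP replicates. For Cyp4a14 they were Rab15, Cdk9 and Tnfrsf14, at 0.063, 0.085 and 0.107 (median 2.46). Rab15 read 1169.9 and 1118.3 in the lipin replicates, against 1356.9 and 217.1 in the GFP replicates, low in GFP replicate 2 alone as Cyp4a14 was.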

How the data were processed

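Affymetrix mouse array signals of 4 liver samples were used, 1 array each, grouped by title. Per the submitters' processing notes the authors used MAS5, and the deposited values are intensity values on a linear scale. No source used here gives its version, scaling target or build. Each array had a trimmed mean of 1501, so no further normalization was applied. MAS5 scales arrays linearly and leaves dim probe sets noisy. Gene names came from the platform annotation.

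Without the 64 control probe sets, a floor was set at the 20th percentile (119.5) before log2. The 13576 probe sets whose mean log2 signal reached the 40th percentile entered limma 3.58.1 (R 4.3.3; lmFit, then eBayes with a trend on intensity), which had 2 residual and 12.7 prior degrees of freedom. The two-sided p-values were adjusted by Benjamini-Hochberg across those 13576, with calls at 0.05. The SE of a log2 difference is limma's. A gene of a list is represented by its brightest tested probe set. The fit was tested on simulated data with the same spread for every probe set, and no result here rests on that test.

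The members and the 17 gene lists were chosen with earlier results of these data known. Named genes are all probe sets of the members, a set of list genes given whatever their values, and the 3 nearest genes of Cyp4a10 and Cyp4a14. Genes named because their groups did not overlap, among them Aldh1a1, Aldh2, Aldh9a1, Lta4h and Saa2, and marker exceptions were chosen after their values were seen. Alternatives covered normalization, floor, filter, variance model, replicate block, threshold, probe sets matching several transcripts and leaving out each array. Por and Cyp4f17 are not analysed here.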

Additional observations from a re-analysis of the deposited data

How the results depend on the processing

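No Cyp4 probe set was called under any alternative run. Over all probe sets 0 were called by limma with all 4 arrays, whichever normalization, floor, filter, variance model or threshold was used, except that the replicate block called 52, 34 higher and 18 lower. With 1 array left out, between 0 and 13 were called. The replicate numbers do not pair the samples as far as the labels say (correlation of same-numbered deviations 0.028 over 13576 probe sets), and under the block limma's prior degrees of freedom were infinite, as they were when either lipin replicate was left out, so the variance of each probe set was the trend's. The lone array of a group was then assumed to vary like the others.

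The median log2 difference of the Cyp4 probe sets, 0.16, ran from 0.02 to 0.89 with 1 array left out. Single differences changed sign only with an array left out: Cyp4a14 ranged from -0.31 to 2.41, Cyp4b1 from -0.56 to 2.91, Cyp4f14 from -0.31 to 0.41, Cyp4f15 from -1.01 to 0.89 and the dimmer Cyp4v3 probe set from -0.09 to 0.41. Cyp4a10, Cyp4a12a, Cyp4f13 and the brighter Cyp4v3 probe set kept their sign in all 13 alternatives. Their adjusted p lay between 0.530 and 1.000. The filter at the 60th percentile left 7 Cyp4 probe sets and gave no value for Cyp4a14 and Cyp4b1. No detection calls were used, which leaves the margin over background unknown.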

Other observations

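The other P450 genes of arachidonate metabolism and the epoxide hydrolases had 12 tested genes, 0 of which passed limma's test, with a median log2 difference of -0.02. Both arrays labelled lipin lay above both GFP arrays in 2 of the 12, Cyp2j5, an epoxygenase, and Ephx2, the soluble epoxide hydrolase, a share of 16.7% beside 17.3% of all genes tested. Ephx2 read 26520.5 and 26828.5 in the lipin replicates, against 18752.2 and 19494.5 in the GFP replicates, a log2 difference of 0.48 ± 0.31 (SE). Both genes were named after their values were seen.

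Of the leukotriene genes 3 were tested, with a median of -0.26, and 0 passed. Lta4h, the leukotriene hydrolase, read 1606.9 and 1590.8 in the lipin replicates, against 1081.1 and 935.2 in the GFP replicates. Of the 3, only Lta4h had groups without overlap, a share of 33.3% beside 33.3% of all genes tested. Its log2 difference was 0.67 ± 0.58 (SE), whereas those of Alox5ap and Cysltr1 were -0.26 and -0.85, with overlap. Lta4h and Saa2 were named after their values were seen. Of 14 acute phase genes 0 passed, with a median of 0.24. In 6, the 3 fibrinogen chains among them, both arrays labelled lipin lay above both GFP arrays, and in 1, Saa2, below, beside 1469 above and 1362 below of all 8493 genes tested. Saa2 read 770.0 and 735.6 in the lipin replicates, against 1165.4 and 860.3 in the GFP replicates. Saa1 read 3789.4 and 2801.6 in the lipin replicates on its brighter probe set, against 2256.4 and 2042.8 in the GFP replicates.

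Of 2 tested female-biased genes 0 passed, and Cyp2b9 read 736.0 and 921.3 in the lipin replicates, against 706.1 and 272.8 in the GFP replicates. The median log2 difference was 0.17 over 8 hepatocyte markers, 0.34 over 9 Kupffer cell and macrophage markers and 0.17 over 6 endothelial markers. It was -1.20 over 5 T and NK cell markers and -0.64 over 5 stellate cell markers, beside 0.00 over all genes tested. The T and NK cell markers were dim, and the SE of the 5 tested ran from 0.7 to 1.32. Of all 10, 4 and 4 lay under the floor in lipin replicates 1 and 2, and 4 and 2 in GFP replicates 1 and 2. The single tested cholangiocyte marker, Krt7, stood at 0.33. No marker of these 6 lists passed.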
